A study of Mus musculus with 14 samples.

Results

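The circadian clock genes Arntl, Clock, Per1, Per2, Per3, Cry1, Cry2, Nr1d1, Nr1d2 and Dbp were followed across the 14 arrays of a mouse intestine study. They were taken as every non-control probe whose gene name on the array is one of these 10 symbols, which gave 14 probes of the 55681 on the array (10 of 36161 gene names). All 10 genes had a probe, 4 of them had 2, and for those the probe with the higher mean over the arrays was used. Of the 14 probes, 11 carry a transcript accession found in the RefSeq gene table of GRCm38.p6, and all 11 name the same gene there.

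The arrays fall into 5 groups. Small intestine (3 arrays) and colon (3 arrays) are labelled as whole tissue (the study's text speaks of mucosa) of C57BL/6J, the standard inbred strain, from adult wild type mice. Tissue adjacent to adenoma (2 arrays) and adenoma (3 arrays) are likewise labelled whole tissue, of APCmin/+ mice, which carry 1 truncated copy of Apc, the brake on Wnt signalling, and develop intestinal adenomas; the age of these mice is not given in the sources used here. CT26 (3 arrays) is a colon carcinoma cell line derived from BALB/c mice and grown without any other tissue, so it differs from colon in strain as well as in cell composition. By the study's sample list the small intestine arrays come from 3 mice, whereas all 5 adenoma and adjacent arrays come from 1 APCmin/+ mouse, and 1 of the 3 colon samples is listed under an APCmin/+ mouse without saying which array it is. Thus the spread among adenoma and adjacent arrays is that between pieces of 1 animal, and p-values between these groups measure that spread. Where either group is set against small intestine or colon, p-values rest on that spread pooled with the spread of the other group. Genotype, animal and tissue cannot be told apart between those arrays and small intestine. In whole tissue, fewer cells of a type and less RNA per cell cannot be told apart either.

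The mammalian clock is a feedback loop of transcription factors. ARNTL (also called BMAL1) and CLOCK bind E-box sequences and switch on the Per and Cry genes, whose proteins return to the nucleus and block them, and also Nr1d1 and Nr1d2, which encode the REV-ERB receptors that repress Arntl. Dbp, a further target of ARNTL and CLOCK, encodes a factor that drives output genes through D-box sequences. Most cells of the gut have such a clock, and Arntl transcripts crest at about the opposite time of day from those of Nr1d1 and Dbp, so the level of each gene in a piece of tissue depends on the hour of sampling. That hour is not given in the sources used here for any mouse, nor is the state of the CT26 cultures, and their part in the differences below was not tested.

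The sequences that these loops act through are shown for 5 genes whose promoter window holds one of the elements searched for. Of the 10 genes, 9 have a window in the RefSeq table of GRCm38.p6, running from 250 bases before to 50 bases after a start site (13 windows of 300 bases). Capitals mark, on either strand and with no overlap between them, the E-box CACGTG (promoters of Cry1 and Per1), the D-box TTATGTAA or TTACGTAA (Per3) and the hexamer AGGTCA of the REV-ERB and ROR receptors, which on the other strand reads TGACCT (Arntl, Nr1d2 and Per1). The windows are chr7:113207261-113207560 on the plus strand for Arntl, chr11:69098699-69098998 on the plus strand for Per1, chr10:85185005-85185304 on the minus strand for Cry1, chr14:18239057-18239356 on the minus strand for Nr1d2 and chr4:151044616-151044915 on the minus strand for Per3, each written 5′ to 3′ along its gene.
Arntl: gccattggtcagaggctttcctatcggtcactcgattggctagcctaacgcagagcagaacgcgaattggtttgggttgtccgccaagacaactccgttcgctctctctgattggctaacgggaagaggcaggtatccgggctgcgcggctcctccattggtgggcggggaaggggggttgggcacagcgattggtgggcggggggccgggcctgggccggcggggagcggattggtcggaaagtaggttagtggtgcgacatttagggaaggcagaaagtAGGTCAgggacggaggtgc
Per1: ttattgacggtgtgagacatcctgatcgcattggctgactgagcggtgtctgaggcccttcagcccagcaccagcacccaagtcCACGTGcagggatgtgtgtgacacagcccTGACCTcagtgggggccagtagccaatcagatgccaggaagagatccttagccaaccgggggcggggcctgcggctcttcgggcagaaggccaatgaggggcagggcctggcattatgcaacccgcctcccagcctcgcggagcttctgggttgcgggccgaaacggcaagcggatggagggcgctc
Cry1: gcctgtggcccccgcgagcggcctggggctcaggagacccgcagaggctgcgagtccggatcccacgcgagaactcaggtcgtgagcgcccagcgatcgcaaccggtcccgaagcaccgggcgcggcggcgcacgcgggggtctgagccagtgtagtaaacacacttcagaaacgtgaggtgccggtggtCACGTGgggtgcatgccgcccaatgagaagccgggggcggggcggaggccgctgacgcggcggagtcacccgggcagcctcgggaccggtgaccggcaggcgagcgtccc
Nr1d2: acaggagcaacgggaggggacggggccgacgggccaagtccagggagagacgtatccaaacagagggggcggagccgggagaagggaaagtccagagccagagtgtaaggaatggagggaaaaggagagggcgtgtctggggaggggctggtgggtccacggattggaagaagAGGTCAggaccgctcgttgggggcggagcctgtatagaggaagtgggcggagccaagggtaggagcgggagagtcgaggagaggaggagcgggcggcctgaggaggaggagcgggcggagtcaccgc
Per3: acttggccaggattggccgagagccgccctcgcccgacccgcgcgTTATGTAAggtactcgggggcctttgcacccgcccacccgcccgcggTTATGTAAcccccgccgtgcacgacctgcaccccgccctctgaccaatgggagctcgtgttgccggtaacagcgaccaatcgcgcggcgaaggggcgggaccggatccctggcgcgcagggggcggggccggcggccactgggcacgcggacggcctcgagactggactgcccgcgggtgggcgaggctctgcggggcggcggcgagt
The E-box began at base -60 from the start site in Cry1 and at -166 in Per1. Both D-boxes of Per3, at -205 and -158, had the same 8 letters. The hexamer lay at 32 bases into the transcript in Arntl, and at -77 in Nr1d2 and -137 in Per1. A further window, of Clock, held the hexamer at -119. In all, 2 of the 9 genes held the E-box, against 8.09% of the 27025 genes with windows of this length, 1 of 9 held a D-box (1.23% of all) and 4 of 9 held the hexamer (18.1% of all). The windows of Cry2, Nr1d1 and Dbp held none of these letters, which says nothing of elements elsewhere in those genes.

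Levels are given as the log2 of the processed signal minus the 75th percentile of the same array, so 0 is the signal of a probe at that percentile. Such levels are compared for 1 probe across arrays and never between probes. For 8 of the 10 genes the probe was well above background, by the scanner software's flag, on all 14 arrays. Cry1 was not so on either adjacent array, and Per3 was so on 1 of 3 small intestine, 1 of 2 adjacent, 3 of 3 adenoma, 2 of 3 colon and 3 of 3 CT26 arrays. The second probe of Per1 was not well above background on any array. For the genes called below, the array design places the probes, in mm9, at chr7:120457261-120457320 (Arntl), chr1:93313046-93313105 (Per2), chr10:84594731-84594790 (Cry1), chr2:92243807-92243866 (Cry2), chr11:98630526-98631028 (Nr1d1, a span of 503 bases for a probe of 60) and chr7:52965322-52965381 (Dbp), and which exon or UTR each lies in was not analysed here.

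The order of the groups differed from gene to gene. By group mean, Arntl, Clock, Per1, Per2, Cry2 and Nr1d1 were lowest in adenomas. Clock, Per1, Per2, Per3, Cry2, Nr1d2 and Dbp were highest in CT26 cells. Small intestine held the highest mean of Arntl and Cry1 and the lowest of Per3, Nr1d2 and Dbp. How many of all probes are lowest in adenomas or highest in CT26 cells was not counted. These orders therefore describe the genes and do not set them apart from other genes. Neighbouring groups in these orders often overlapped. Among neighbours in the order of Arntl, only adenomas and adjacent tissue, the lowest pair, did not overlap.

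**Figure D1:**
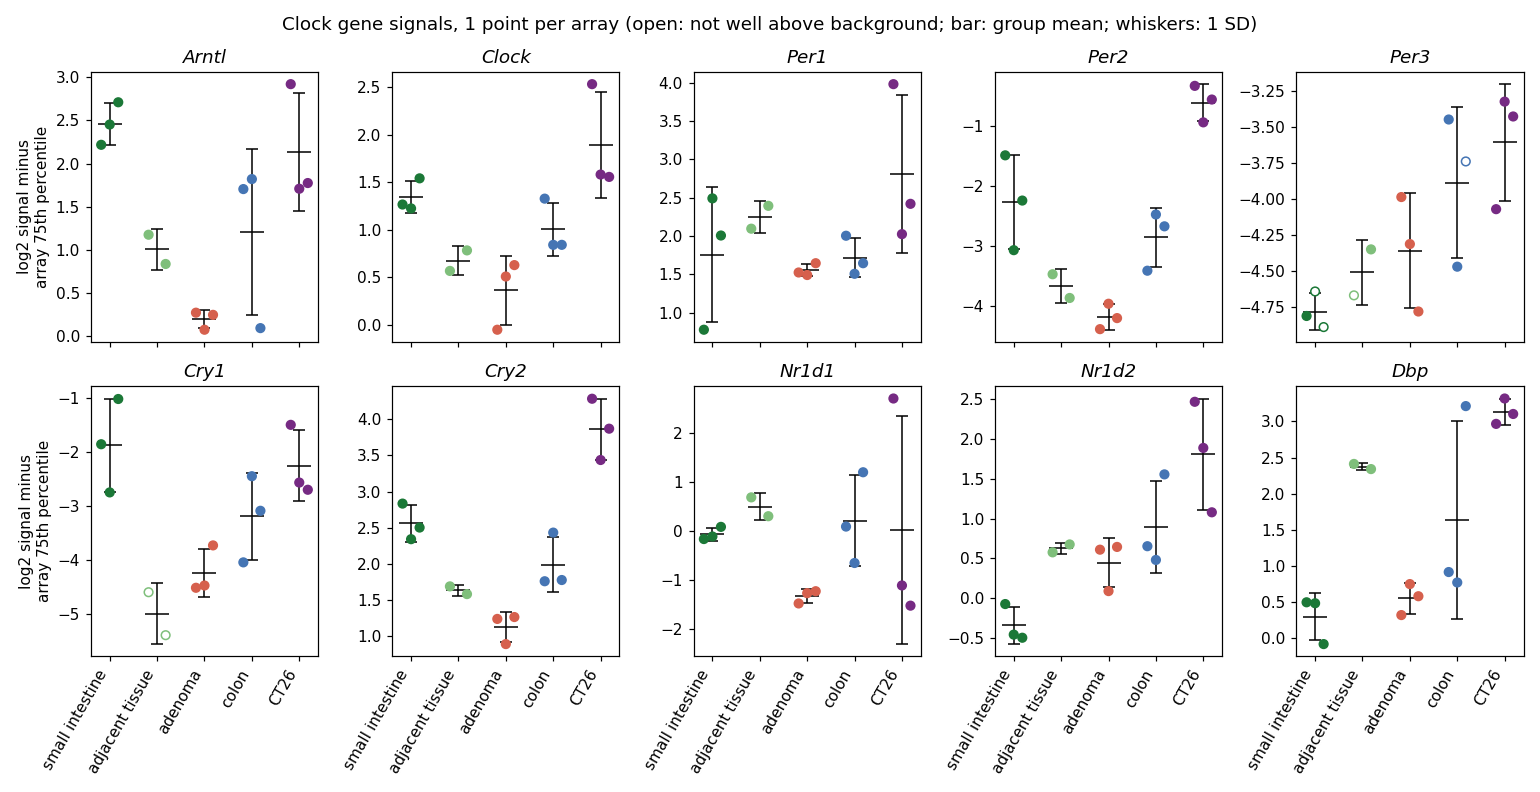
Scaled log2 signal (log2 signal minus the array's 75th percentile, vertical axis) of the 10 clock genes in the 5 groups (horizontal axis). Each point is an array, open where the probe was not well above background, the bar is the group mean and the whiskers are 1 SD; the vertical axes differ between panels. Arntl falls from 2.22 to 2.71 in small intestine to 0.08 to 0.27 in adenomas, and Dbp stands at 2.34 and 2.41 in adjacent tissue.

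Adenomas were compared with healthy small intestine to ask how the tumour differs from normal epithelium-bearing tissue. Of the 10 clock genes 5 were called lower and 0 higher in adenomas, where a call means a log2 difference of 1.2 or more, up or down, with a limma adjusted p no higher than 0.01 (Benjamini-Hochberg over 29532 probes). Over all probes tested, 10.9% were called lower and 10.9% higher. The median log2 fold change was -1.12 over the 10 genes and -0.15 over all probes tested.

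Of the activators, Arntl, the partner of CLOCK, was called lower. Its levels were 2.22, 2.45 and 2.71 on the 3 small intestine arrays and 0.27, 0.08 and 0.25 on the 3 adenoma arrays, with no overlap. The log2 fold change was -2.26 (SE 0.18), a 4.80-fold lower signal, with a limma adjusted p of 0.00020. Within the first slide the difference was -2.20, within the second -2.38, and the call held in all 9 alternative settings and with each of the 6 arrays left out.

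Clock itself moved the same way by less. It stood at 1.27, 1.23 and 1.54 in small intestine and at -0.05, 0.51 and 0.63 in adenomas. These arrays do not overlap, but the log2 fold change of -0.98 (SE 0.22) was under the fold limit and its limma adjusted p was 0.0103.

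Among the repressors, Cry1, Cry2 and Per2 were called lower. Cry2 encodes a cryptochrome, a repressor that binds ARNTL and CLOCK directly, and was at 2.83, 2.34 and 2.5 in small intestine and 1.24, 0.89 and 1.26 in adenomas (log2 fold change -1.43, SE 0.20, limma adjusted p = 0.00150). This call too held in all 9 alternative settings and with each array left out, and the differences within the slides were -1.42 and -1.45. The second Cry2 probe gave -0.81 (limma adjusted p = 0.00576), the same direction but under the fold limit.

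Cry1, the other cryptochrome, was uneven among the small intestine arrays, at -1.86, -2.75 and -1.03, and was at -4.51, -4.47 and -3.73 in adenomas. The groups do not overlap, and the log2 fold change was -2.36 (SE 0.44, limma adjusted p = 0.00488). Without 1 array at a time the call was kept in 2 of 6 fits (without small intestine replicate 2 or 3), and in the authors' table the change was -1.24 (adjusted p = 0.0123), outside the call. Within the slides the differences were -2.68 and -1.72.

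Per2, a period gene whose protein acts with the cryptochromes, was at -1.48, -3.06 and -2.24 in small intestine and -4.38, -3.96 and -4.19 in adenomas. The lowest small intestine array lies above the highest adenoma array. The log2 fold change was -1.91 (SE 0.38, limma adjusted p = 0.00615), the differences within the slides were -2.42 and -0.89, and the fit with slide as a block gave an adjusted p of 0.0109. The call was lost without small intestine replicate 3 (adjusted p = 0.0189) and without adenoma replicate 1 (0.0264), 2 (0.0204) or 3 (0.0232), and in the authors' table the change was -0.92. It held in only 3 of the 9 alternative settings with all arrays. Per1 and Per3 were not called. Per1 was at 0.78, 2.49 and 2.01 in small intestine and 1.52, 1.49 and 1.65 in adenomas, so the adenoma arrays lie inside the small intestine range. Per3 gave 0.42 (SE 0.23), from small intestine arrays of which only replicate 1 was well above background.

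Of the receptors that repress Arntl, Nr1d1 was called lower and Nr1d2 was not called. Nr1d1 was at -0.16, -0.11 and 0.09 in small intestine and -1.48, -1.27 and -1.23 in adenomas, a log2 fold change of -1.27 (SE 0.16, limma adjusted p = 0.00107) that was -1.32 and -1.16 within the slides. Being close to the fold limit, it fell outside the call in the authors' table (-1.12), after normexp correction (-1.10), without small intestine replicate 3 (-1.19) and without adenoma replicate 1 (-1.19), and it had an adjusted p of 0.258 when all 5 groups shared 1 estimate of the spread. Nr1d2, its close relative, was at -0.07, -0.46 and -0.50 in small intestine and 0.61, 0.09 and 0.64 in adenomas, a difference of 0.79 (SE 0.22, limma adjusted p = 0.0217) that was not called. Dbp gave 0.25 (SE 0.22) and its arrays overlapped.

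Cell makeup moved along with this comparison. The summed log2 signal of 10 small intestine enterocyte markers was 10.82 to 12.02 in small intestine and 8.53 to 9.27 in adenomas. That of 8 smooth muscle markers was 7.21 to 9.05 and 6.63 to 6.92, and that of 10 proliferation genes 5.61 to 6.51 and 7.35 to 7.49. Each of these markers passed the background flag on all 6 arrays. Their part in the clock gene differences was not tested.

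**Figure D2:**
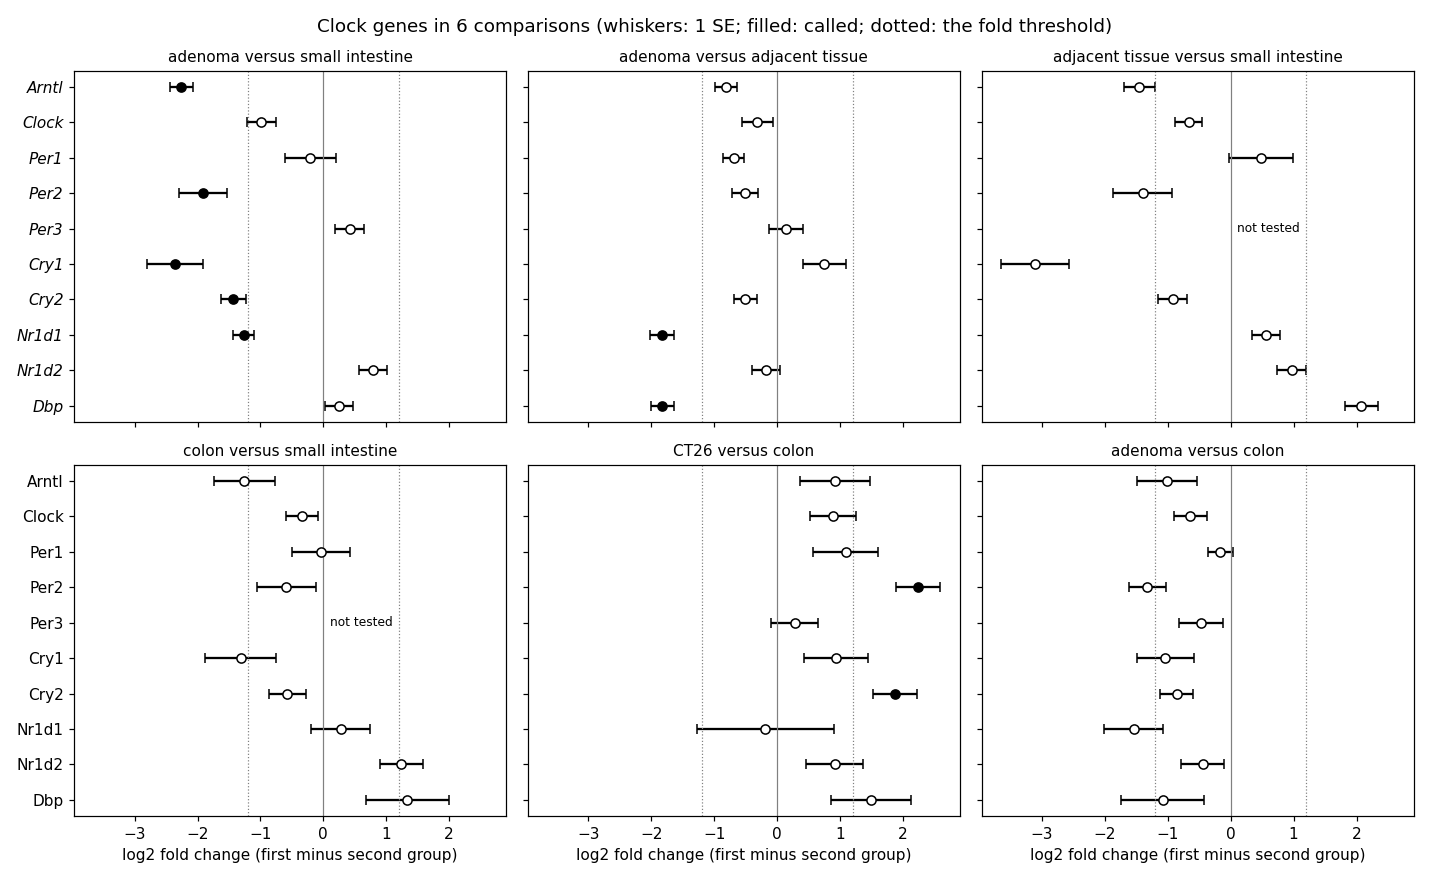
Log2 fold change of the 10 clock genes (vertical axis) in 6 comparisons, first minus second group (horizontal axis), with 1 SE; filled points were called and dotted lines mark the fold limit of 1.2. Filled points are 5 lower genes in adenomas against small intestine, 2 lower in adenomas against adjacent tissue, and 2 higher in CT26 cells against colon.

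Adenomas were then set against the adjacent tissue of the same animal, where genotype and mouse are shared. Here 2 of the 10 genes were called lower in adenomas and 0 higher, beside 1.7% and 2.27% of the 29726 probes tested. The median log2 fold change was -0.51 over the 10 genes and -0.05 over all probes tested.

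The 2 genes were Dbp and Nr1d1. Both are direct targets of ARNTL and CLOCK, but so are the Per and Cry genes and Nr1d2, and none of those was called. Dbp stood at 2.41 and 2.34 on the adjacent arrays and at 0.32, 0.75 and 0.58 on the adenoma arrays (log2 fold change -1.83, SE 0.18, limma adjusted p = 0.00533), a 3.54-fold lower signal. The second Dbp probe was called as well (-1.52, limma adjusted p = 0.00857). Nr1d1 stood at 0.69 and 0.30 and at -1.48, -1.27 and -1.23 (log2 fold change -1.83, SE 0.19, limma adjusted p = 0.00558). Both genes differed without overlap, and within the slides by -1.96 and -1.59 for Dbp and by -2.05 and -1.58 for Nr1d1.

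Neither call was firm in its p-value, with only 2 adjacent arrays. With slide as a block the adjusted p was 0.0135 for Dbp and 0.0141 for Nr1d1, with the number in the sample title as a block (an alternative added after the data were seen) it was 0.0766 and 0.0810, with 1 spread estimated over all 5 groups it was 0.103 and 0.324, and leaving out an adenoma array or adjacent replicate 1 raised it to between 0.0148 and 0.0416, while the log2 fold changes stayed between -1.98 and -1.71 for Dbp and between -2.02 and -1.58 for Nr1d1 over all alternatives. Arntl was lower in adenomas than in either adjacent array (1.18 and 0.84), by -0.81 (SE 0.18, limma adjusted p = 0.0307), and Per1 (2.10 and 2.39 in adjacent tissue) by -0.69 (SE 0.17, limma adjusted p = 0.0393). Both are under the fold limit. Cry1 went the other way, since it was not well above background on the 2 adjacent arrays and was so on all 3 adenoma arrays, at least 1.19-fold higher there (limma adjusted p = 0.171), which is no call.

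Cell makeup moved with this comparison too, without overlap. The summed enterocyte signal was 10.76 and 10.64 in adjacent tissue and 8.53 to 9.27 in adenomas, that of the proliferation genes 6.55 and 6.73 against 7.35 to 7.49, and that of smooth muscle 9.24 and 7.25 against 6.63 to 6.92, with each marker well above background on all 5 arrays. Their part in the Dbp and Nr1d1 differences was not tested.

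Against healthy small intestine the adjacent tissue had 0 of 9 tested genes called in either direction (Per3 did not enter the test), beside 0.00694% of 28824 probes called higher and 0% lower. At an unadjusted p under 0.05 in limma, 8 of the 9 passed, beside 30.4% of all probes. The strongest was Dbp, at 0.50, 0.49 and -0.08 in small intestine and above 2.3 on both adjacent arrays (log2 fold change 2.07, SE 0.26, limma adjusted p = 0.0415, second probe 1.90). Nr1d2 (0.97, SE 0.23, limma adjusted p = 0.0717) and Nr1d1 (0.56, SE 0.23, limma adjusted p = 0.164) lay on the same side. On the other side were Arntl (-1.45, SE 0.25, limma adjusted p = 0.0514), Cry2 (-0.93), Per2 (-1.40) and Clock (-0.67), and Cry1, at least 6.08-fold lower in adjacent tissue (limma adjusted p = 0.0514). None of these 8 genes met the call. The second Cry2 probe, well above background on all 14 arrays, went against the first, at 0.18 (SE 0.21, limma adjusted p = 0.558). The group means of Dbp were 0.30 in small intestine, 2.38 in adjacent tissue and 0.55 in adenoma, and those of Arntl 2.46, 1.01 and 0.20.

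The colon arrays need a remark first. Colon replicate 3 correlated at 0.934 and 0.938 with the other colon arrays (over 20822 probes, against 0.985 between those) and at 0.951 to 0.969 with small intestine. Its summed enterocyte signal was 10.8, against 6.83 and 7.56, its summed B cell signal 5.46, against 2.57 and 2.94, and its summed adipocyte signal 4.18, against 1.13 and 2.48. Its summed colonocyte signal, 9.96, was near those of the others (9.22 and 9.37), with 8 of the 10 markers well above background there and all 10 on the others. It lay at least 1 log2 unit away from both other colon arrays for 17.6% of those probes.

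Arntl, Dbp and Nr1d1 did the same on this array. Arntl was at 0.09 there and at 1.70 and 1.82 on the other colon arrays. Dbp was at 3.21, against 0.92 and 0.77, and Nr1d1 at 1.21, against 0.09 and -0.65. So the array was low in Arntl and high in Dbp and Nr1d1, the same sides on which adjacent tissue lay from small intestine. Nr1d2 also lay above both other colon arrays, at 1.55 (against 0.65 and 0.48). The likeness went no further. By the probes used, Clock, Per1, Per2, Per3, Cry1 and Cry2 lay between the other colon arrays. Adjacent tissue was below small intestine in Clock, Per2, Cry1 and Cry2. Outside the 10, the output genes read did not all move 1 way on it. Tef stood high at 3.92 (against 2.62 and 2.42) and Usp2 at 3.23 (against 0.24 and 0.86). Klf10, Hlf and Nfil3 lay above both other colon arrays by less. Wee1 lay below both, at -1.48 (against 0.01 and -0.07), and Nampt lay between them. The part of the array's cell makeup in these values was not tested.

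Between colon and small intestine 0 of 9 clock genes tested were called, beside 0.00366% of 27287 probes called higher and 0.00366% lower in colon; at an unadjusted p under 0.05 in limma, Arntl (-1.25, SE 0.49) and Nr1d2 (1.24, SE 0.34) passed, beside 23.5% of all probes. Without colon replicate 3 the difference was -0.70 for Arntl, 0.91 for Nr1d2 (limma adjusted p = 0.0440) and 0.54 for Dbp, in place of 1.33 with it, and again 0 were called, although 2121 probes were called in all without it. Adenomas had a lower mean than colon in all 10 genes, with a median log2 fold change of -0.93 (-0.06 over all probes tested). The same held under every alternative that could be fitted, but these reuse the same arrays. Within the first slide Per1 (0.08), Per3 (0.09) and Nr1d2 (0.15) were higher in adenomas. The arrays of Arntl, Per1, Per3, Cry1 and Nr1d2 overlapped between the groups. Of the 10, 0 were called, beside 1.44% of 29165 probes called lower and 1.98% higher. At an unadjusted p under 0.05 in limma, 3 genes (Per2, Cry2 and Nr1d1) passed, beside 28.4% of all probes. Per2 came nearest (-1.33, SE 0.30, limma adjusted p = 0.0382). Without colon replicate 3, Arntl was called lower in adenomas (-1.56, limma adjusted p = 0.00189), against -1.01 with it.

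In CT26 cells 2 of the 10 genes were called higher than in colon and 0 lower, beside 21.5% and 14.9% of 29387 probes. The median log2 fold change was 0.93 over the 10 genes and 0.37 over all probes tested. Per2 was at -0.33, -0.93 and -0.55 in CT26 and at -3.41, -2.47 and -2.67 in colon (log2 fold change 2.24, SE 0.35, limma adjusted p = 0.00140), a 4.73-fold higher signal. It was called in all 9 alternative settings and with each of the 6 arrays left out, and the differences within the slides were 2.03 and 2.1. Cry2 was at 4.29, 3.44 and 3.87 in CT26 and at 1.76, 2.43 and 1.77 in colon (log2 fold change 1.88, SE 0.35, limma adjusted p = 0.00311; 1.65 and 1.67 within the slides). Cry2 lost its call after quantile normalization (adjusted p = 0.0122) and without colon replicate 1 (0.0144) or CT26 replicate 1 (0.0119) or 3 (0.0155), and its second probe gave 1.04 (limma adjusted p = 0.0439).

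Dbp was the most even of the 10 in CT26 cells, at 2.97, 3.32 and 3.1, and its distance from colon depended on 1 colon array. The log2 fold change was 1.49 (SE 0.63, limma adjusted p = 0.0824) with all arrays and 2.28 (limma adjusted p = 0.00047, called) without colon replicate 3. The 2 probes of Nr1d2 disagreed, with 0.91 (limma adjusted p = 0.131) for the brighter and 1.84 (limma adjusted p = 0.00717, called) for the other. CT26 replicate 1 stood apart from the other CT26 arrays in 4 clock genes by at least 1 log2 unit, all higher, beside 10.4% of all probes: Nr1d1 was at 2.72 there and at -1.11 and -1.53 on the others, Per1 at 3.98 against 2.02 and 2.42, Arntl at 2.92 against 1.71 and 1.77, and Cry1 at -1.50 against -2.57 and -2.7. The SD of Nr1d1 among the CT26 arrays, 2.34, exceeded that of 99.97% of the probes well above background on all arrays. Its difference from colon accordingly had no settled sign: 1.25 within the first slide and -1.76 within the second. It was -0.19 (SE 1.09) with all arrays and -1.54 without CT26 replicate 1. As a check of the label, 8 markers of gut epithelium were read, and all 8 were well above background on every tissue array. On the CT26 arrays 3 or 4 of the 8 were so, and Epcam, Cdh1, Krt19 and Vil1 were not on any.

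**Figure D3:**
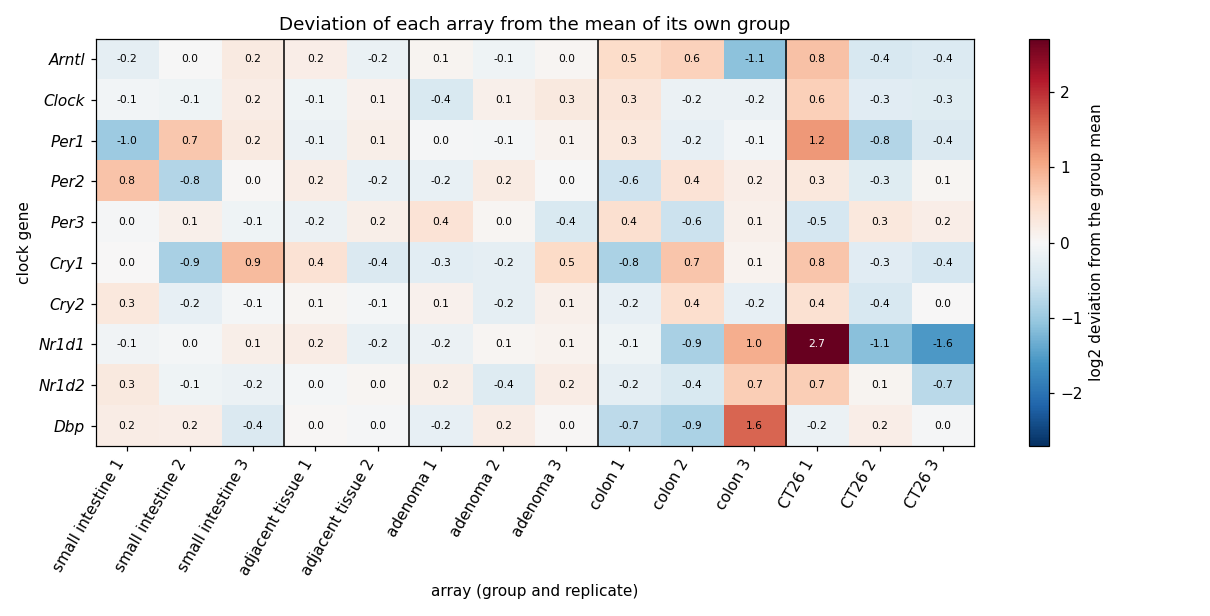
Deviation of each array from the mean of its own group (colour and printed value, log2 units) for the 10 clock genes (rows) and 14 arrays (columns). Colon replicate 3 shows low Arntl (-1.11) with high Dbp (1.58) and Nr1d1 (0.99), and CT26 replicate 1 shows high Nr1d1 (2.69) and Per1 (1.17).

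On 10 of the 14 arrays, Arntl and Dbp deviated from their group means to opposite sides. They lay on the same side on both adjacent arrays, adenoma replicate 3 and CT26 replicate 3, and the largest opposite deviations were those of colon replicate 3 (-1.11 and 1.58). Over the 14 arrays the Pearson correlation of their deviations from the group means was -0.86, and -0.57 over the 11 arrays other than colon, given as a description of arrays that share 1 scaling for both genes. Within each group the deviations of a gene sum to 0, so the 14 arrays are not independent observations, and the 2 adjacent arrays count as 1. Some of the counted deviations are small, as that of Arntl on small intestine replicate 2 (-0.007). For the levels themselves the correlation was -0.04. Among the repressors, Per1, Per2 and Cry1 were uneven in small intestine, with SDs of 0.88, 0.79 and 0.86 that exceeded those of 97.4%, 96.1% and 97.1% of probes. Arntl, Clock and Nr1d1 on the same arrays had SDs of 0.25, 0.17 and 0.13, below the median of 0.26. So had the repressors Cry2 (0.25) and Per3 (0.13, near background). Cell makeup differed among these arrays as well. On replicates 1, 2 and 3 the summed adipocyte signal was 3.78, 5.44 and 0.11, and that of smooth muscle 7.94, 9.05 and 7.21. Its part in the uneven genes was not tested.

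The genes whose levels followed Dbp most closely over the 14 arrays, among 16098 genes well above background on all of them, were Pram1 (Pearson r 0.92), 2 transcripts that the array design names by position alone (0.91 and 0.90), Tef (0.89) and Swap70 (0.88), and without colon these were 0.88 to 0.92. Tef encodes a transcription factor of the same family as DBP. For Arntl they were Coq9 (0.95), Idh3b (0.95), Fam149b (0.94), Gtpbp8 (0.93) and Nsun3 (0.93), and 0.94 to 0.97 without colon. Of the clock genes well above background on all arrays, Clock was nearest to Arntl (0.81, rank 165 among all genes). Nr1d2 was nearest to Dbp (0.82, rank 61). The rest of them correlated at -0.04 to 0.76 with Arntl and at -0.04 to 0.51 with Dbp, Nr1d1 at 0.36 with Dbp (rank 7081). By deviations from the group means, the closest to Dbp were C2, Lgmn, a transcript with an Ensembl identifier only, Vps37d and Slc25a15 (0.96 to 0.97, but 0.49 to 0.85 without colon), and the closest to Arntl were 1700028J19Rik, Itpa, Coq9, A230051G13Rik and Trim32 (0.96 to 0.97, and 0.91 to 0.94 without colon).

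A further 19 genes of the clock pathway (paralogues, ROR receptors, D-box factors, kinases, ubiquitin ligases and output genes) were read in the same way, and all had a probe. In adenomas against small intestine 3 of the 17 tested were called higher and 5 lower, beside 10.9% of all probes in each direction. Arntl2, the paralogue of Arntl, was among the higher ones, at -2.44, -1.98 and -2.21 in small intestine and 1.07, 0.83 and 0.89 in adenomas (log2 fold change 3.14, SE 0.18, limma adjusted p = 9.04e-05), the reverse of Arntl. The other 2 were Timeless (2.39, SE 0.31), which acts in DNA replication, and Csnk1e (1.73, SE 0.16), a kinase that marks PER proteins for destruction. Called lower were Npas2 (-2.58), the paralogue of Clock, Usp2 (-2.22), a deubiquitinase and clock output, Nfil3 (-2.04), a repressor at D-boxes, Hlf (-2.04), a relative of DBP, and Fbxl21 (-1.33), a ubiquitin ligase subunit. Against adjacent tissue, 1 of 17 was called lower in adenomas (1.7% of all probes) and 0 higher (2.27%), namely Usp2 (1.57 and 1.97 in adjacent tissue against -0.20, 0.00 and -0.26, log2 fold change -1.92, SE 0.19).

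**Figure D4:**
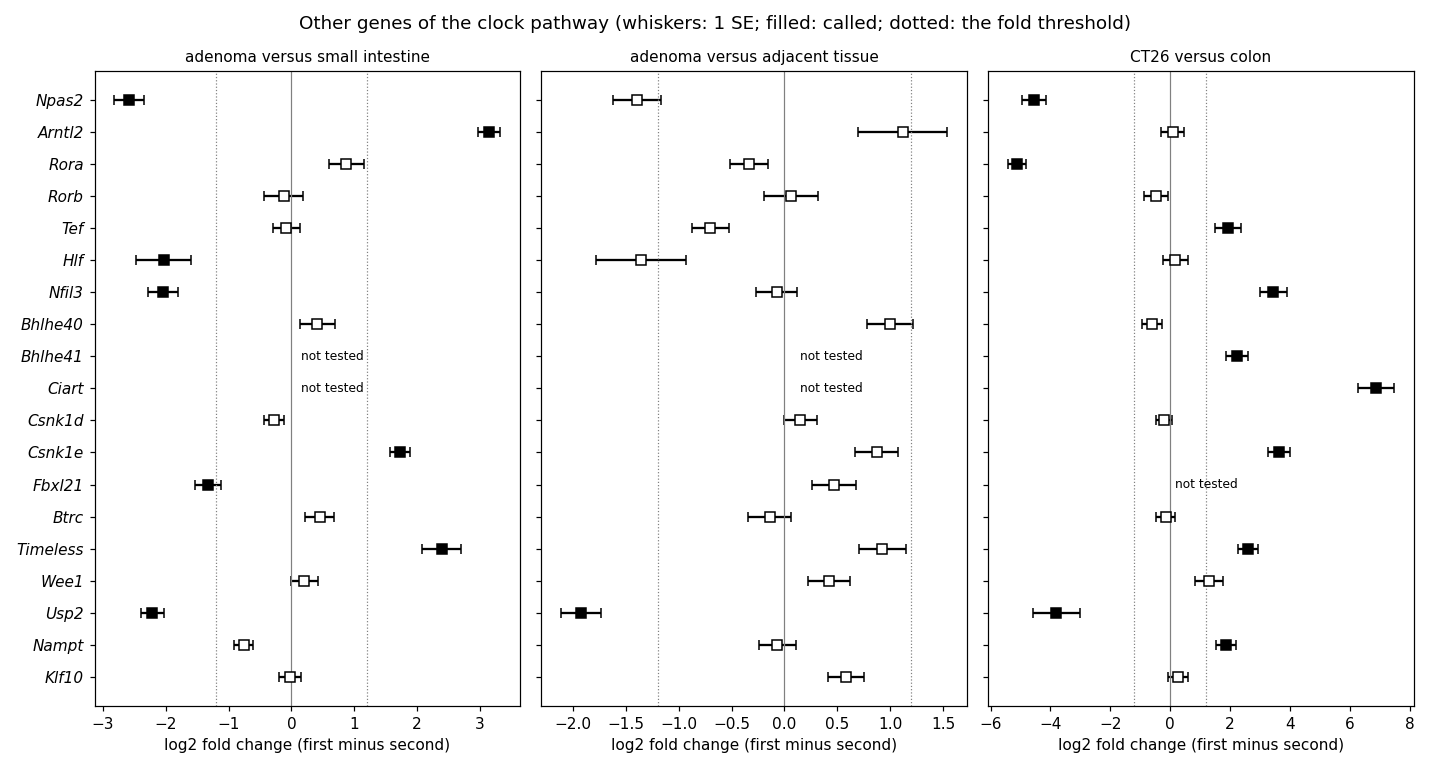
Log2 fold change (horizontal axis, first minus second group, with 1 SE) of 19 further clock pathway genes (vertical axis) in 3 comparisons; filled squares were called, dotted lines mark the fold limit of 1.2, and the horizontal scales differ. Arntl2 is at 3.14 and Npas2 at -2.58 in adenomas against small intestine, and Ciart is at 6.88 in CT26 cells against colon.

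Between adenomas and colon, Arntl2 (2.56), Csnk1e (1.49) and Timeless (1.48) were called higher and 0 of 17 lower, beside 1.98% and 1.44% of all probes, and 0 of 17 were called in either direction between colon or adjacent tissue and small intestine. CT26 cells had 7 of 18 called higher than colon and 3 lower, beside 21.5% and 14.9% of all probes, so the share called lower was close to that of all probes. Of these, Ciart and Bhlhe41 entered the test through CT26 alone, and Rora and Npas2 through colon alone, so their calls are no support beyond the levels themselves. Ciart, a repressor of ARNTL and CLOCK, was not well above background on any of the 11 tissue arrays and was at 1.83, 0.28 and 1.2 in CT26 cells, at least 48.3-fold higher than in colon. Bhlhe41, a repressor that competes for E-boxes, was likewise above background in CT26 alone, at least 2.20-fold higher than in colon. The others were Csnk1e (3.63), Nfil3 (3.44), Timeless (2.60), Tef (1.94) and Nampt (1.87), an enzyme of NAD synthesis. On the lower side Rora was at least 8.57-fold and Npas2 at least 8.37-fold lower, since neither was well above background on any CT26 array, and Usp2 was lower by a log2 fold change of -3.80 (SE 0.80).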

How the data were processed

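RNA was labelled with Cy3 and hybridised to 1-colour Agilent SurePrint G3 Mouse arrays (design coordinates mm9, NCBI37). The authors deposited scanner output of Feature Extraction 10.7.3.1. Its processed signals are intensities after background subtraction and detrending, without normalization across arrays, beside flags of the scanner software. The authors also deposited a table of log2 values normalized between arrays by a method not given in the sources used here; it holds the authors' own fold changes and p-values too, which were not used, nor were 28 further per-sample columns. Its 14 columns each correlated best with their own scanner array (r of at least 0.992).

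Control spots and outlier spots (103 to 206 an array) were left out, signals were scaled on the log2 scale to the array's own 75th percentile, and spots of a probe were averaged. Between 46.8% and 58.2% of probes were well above background, and the number of arrays limits precision. Probes that passed the background flag throughout 1 group or both of a pair were tested with limma 3.58.1 in R 4.3.3, each pair on its own arrays, with Benjamini-Hochberg adjustment over all probes tested. "At least" folds are set against the lowest signal well above background on the dim group's arrays. The procedure was tested on simulated data, where few changed probes were recovered at the arrays' own spread in most comparisons, so a count of 0 called does not show that nothing differed. The clock genes, the further pathway genes and the marker lists were chosen with earlier results of these data known. Some pathway genes are not reported here. All 10 clock genes are named, with every further pathway gene that was called, and the 5 genes most like Dbp and Arntl by Pearson correlation. Alternatives were the authors' table, quantile normalization, normexp correction with an offset of 50, other filters on dim probes, 1 fit over all 5 groups, slide and replicate blocks, an adjusted p of 0.05 with no fold limit, and leaving out each array.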

Additional observations from a re-analysis of the deposited data

How the results depend on the processing

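Of the 9 called clock gene values, 0 reversed sign under any alternative: over the 9 settings with all arrays 60 values kept their call and 21 lost it, and with 1 array left out 31 kept it and 21 lost it. Whether same-numbered arrays belong together cannot be settled by correlating so few arrays. Their deviations correlated at 0.02, 0.12 and -0.09 between adenoma and small intestine, and no comparison with 3 pairs had every correlation above 0.1. Of those with 2 pairs, adjacent tissue against small intestine gave 0.29 and 0.14, and adenoma against adjacent tissue -0.01 and -0.04. The deviations of the 2 adjacent arrays mirror each other, so these 2 pairs are not independent. With the replicate number as a block, the clock genes called were 4 in adenoma against small intestine (5 without), 0 in adenoma against adjacent tissue (2 without) and 1 in CT26 against colon (2 without), and 0 as before in the rest. The titles number the adjacent arrays 2 and 3; paired by title number, an alternative added after the data were seen, the deviations correlated at 0.04 and 0.03 with adenoma and at -0.14 and 0.21 with small intestine, and 0 clock genes were called in either comparison. In adenoma against small intestine, 2 were called in the authors' table and 3 each after normexp correction and with no filter on dim probes, and 2 to 5 with 1 array left out. In adenoma against adjacent tissue, 0 were called with no filter, in 1 fit of all 5 groups and with slide as a block, 4 at an adjusted p of 0.05 with no fold limit, and 0 to 2 with 1 array left out. In CT26 against colon, 1 was called after quantile normalization and 1 to 3 with 1 array left out. The looser threshold gave 1 (Dbp) in adjacent tissue against small intestine and 1 (Per2) in adenoma against colon, where leaving out 1 array gave 0 to 1. The cause of these shifts was not tested. Signals near background, as of Per3 and of Cry1 in adjacent tissue, limit what can be said of those genes.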
